A study of Mus musculus with 9 samples.

Results

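Ribosome biogenesis was described through 44 named genes for factors that transcribe, modify and assemble ribosomal RNA, all of which were found by symbol among the 26858 genes of the table and all of which passed the filter on low counts, as 44 of the 14990 genes tested. They were taken by name as members of the pathway, with earlier results of these data known. By role they were sorted into RNA polymerase I and its factors (7 genes), the core proteins of box C/D (3) and box H/ACA (4) small nucleolar ribonucleoproteins (snoRNPs), factors of the small subunit (13), factors of the large subunit (11) and multifunctional nucleolar proteins (6). RNA-seq was performed on SIX2 nephron progenitor cells of the mouse, sorted by eGFP at embryonic age E18.5, from 4 heterozygous *Six2-Qpc*+/- kidney preparations (control; libraries 71, 72, 73 and 76) and 5 *Six2-Qpc*-/- preparations (mutant; libraries 74, 75, 77, 78 and 79). *Qpc*, listed as *Uqcrq*, encodes a subunit of mitochondrial complex III, and the study compared these genotypes to learn how loss of electron transport alters gene expression in nephron progenitors. Both genotypes carry the *Six2*-driven eGFP/Cre fusion that deletes the floxed gene and marks the cells for sorting, and control cells have lost 1 *Qpc* allele, so that neither a Cre-free nor a wild-type sample entered the comparison. Whether a library came from 1 embryo or from several was not given, and p-values therefore measure only the spread between these libraries.

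In the nucleolus, RNA polymerase I transcribes a long precursor that contains the RNAs of both ribosomal subunits. Box C/D and box H/ACA snoRNPs modify this precursor, a large early complex on its small subunit part folds and cleaves it, and separate sets of GTPases, helicases, methyltransferases and scaffold proteins mature the small and the large subunit before export. The pathway takes up much of the biosynthetic capacity of a growing cell, and self-renewing progenitors, among them the cap mesenchyme that gives rise to nephrons, depend on it.

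Sequences around the start site are shown for the E-box CACGTG, the palindromic site that MYC and related helix-loop-helix proteins recognise, because genes of this pathway are known for it. The promoter window, taken from RefSeq on build GRCm38.p6, ran from 250 bases before to 50 bases after the gene's start and was matched by symbol for 38 of the 44 genes; *Fbl*, *Nol6*, *Rrp12*, *Bop1*, *Rrs1* and *Npm1* were not matched. The motif reads the same on both strands and was present in 10 of the 38 genes (26.3%), against 11.6% of 10475 tested genes with a window. A gene was counted if any of its windows held the motif. Counted by single window, an unlike measure, the share was 7.15% of all 32851 windows. Among the matched genes that rose in mutant libraries, it was present in 4 of 8, and these 4 are given here as 30 bases on the strand of the gene, from 5′ to 3′, with the motif in capitals.
*Nop2*, chr6:125131811-125131840, plus strand: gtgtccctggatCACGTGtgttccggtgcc
*Ltv1*, chr10:13193092-13193121, minus strand: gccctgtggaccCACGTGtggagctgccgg
*Utp18*, chr11:93885769-93885798, minus strand: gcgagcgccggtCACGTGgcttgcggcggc
*Wdr43*, chr17:71616220-71616249, plus strand: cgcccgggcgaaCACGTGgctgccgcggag
The motif began 60 bases before the start in *Nop2* and 20 bases before it in *Utp18*, and after the start, at offsets of 18 and 29 bases, in *Wdr43* and *Ltv1*. In the other 30 matched genes it was present in 6, namely *Rrn3*, *Utp20*, *Tsr1*, *Pes1*, *Nle1* and *Mybbp1a*. *Rrn3*, which encodes the factor that brings RNA polymerase I to its promoter, held 2 copies, shown because it was the only member with more than 1.
*Rrn3*, chr16:13780472-13780501, plus strand: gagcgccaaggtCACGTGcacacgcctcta
*Rrn3*, chr16:13780639-13780668, plus strand: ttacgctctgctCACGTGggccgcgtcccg
The median log2 fold change, mutant against control, was 0.29 in the 10 genes with the motif and 0.29 in those without it. The motif of the amino acid response, TGATGNAA, searched on both strands, was present in 1 member (*Nop14*), or 2.63% of those matched, against 2.65% of tested genes with a window. These matches describe the letters in the windows, and binding was not measured.

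In mutant progenitors 9 genes of the pathway rose and none fell: 9 of 44 passed the threshold of an adjusted p-value under 0.05 with higher expression in mutant libraries, and 35 did not pass. *Gnl3* (nucleostemin) rose 2.42-fold, and the other 8, *Utp18*, *Ddx21*, *Nip7*, *Nop2*, *Wdr43*, *Ltv1*, *Utp15* and *Rrs1*, rose between 1.32-fold and 1.78-fold. Among all 14990 genes tested, 7.82% were higher and 7.02% lower, 14.8% in either direction, against 20.5% higher among the 44. The fitted change was positive in 33 of the 44 genes and negative in 11, with a median log2 fold change of 0.29, whereas the median over all genes tested was -0.01. Because the 44 genes were chosen with earlier results of these data known, these shares describe the list and were not tested. At an unadjusted p under 0.05, 21 of the 44 genes were higher and 1, *Rrp1b*, was lower, against 16.3% and 15.2% of all genes tested. With DESeq2 the threshold was passed by 14 members, all higher, where 10.4% of the genes given an adjusted p were higher and 8.59% lower. With limma-voom and library quality weights 21 members were higher and 2, *Polr1a* and *Rrp1b*, lower, but calls over all genes also rose, to 16.1% higher and 16.4% lower. In 9 genes every mutant library lay above every control library and in none below, against 7.50% and 7.73% of all genes tested.

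The 44 genes together took up 0.591%, 0.628%, 0.639% and 0.624% of the counts in control libraries 71, 72, 73 and 76. In mutant libraries 74, 75, 77, 78 and 79 they took up 0.706%, 0.730%, 0.769%, 0.763% and 0.687%. The shares did not overlap, averaging 0.620% ± 0.0206 (SD, n = 4) for control libraries against 0.731% ± 0.0354 (SD, n = 5) for mutants, and libraries 77 and 78 were the highest. *Npm1* alone, which did not pass the threshold, gave 0.0433 of the difference of 0.111 percentage points, and without it the shares were 0.473% ± 0.0344 and 0.540% ± 0.0205, with 0.504% in the highest control and 0.510% in the lowest mutant library. *Npm1* was the most highly expressed of the genes per length, at 903 ± 120 FPKM (SD, n = 4) in control libraries, and *Rrp12* the least, at 1.07 ± 0.529 FPKM. The Spearman correlation between the control FPKM of the 44 genes and their log2 fold change was 0.12, a description across genes, which are not independent replicates.

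**Figure D1:**
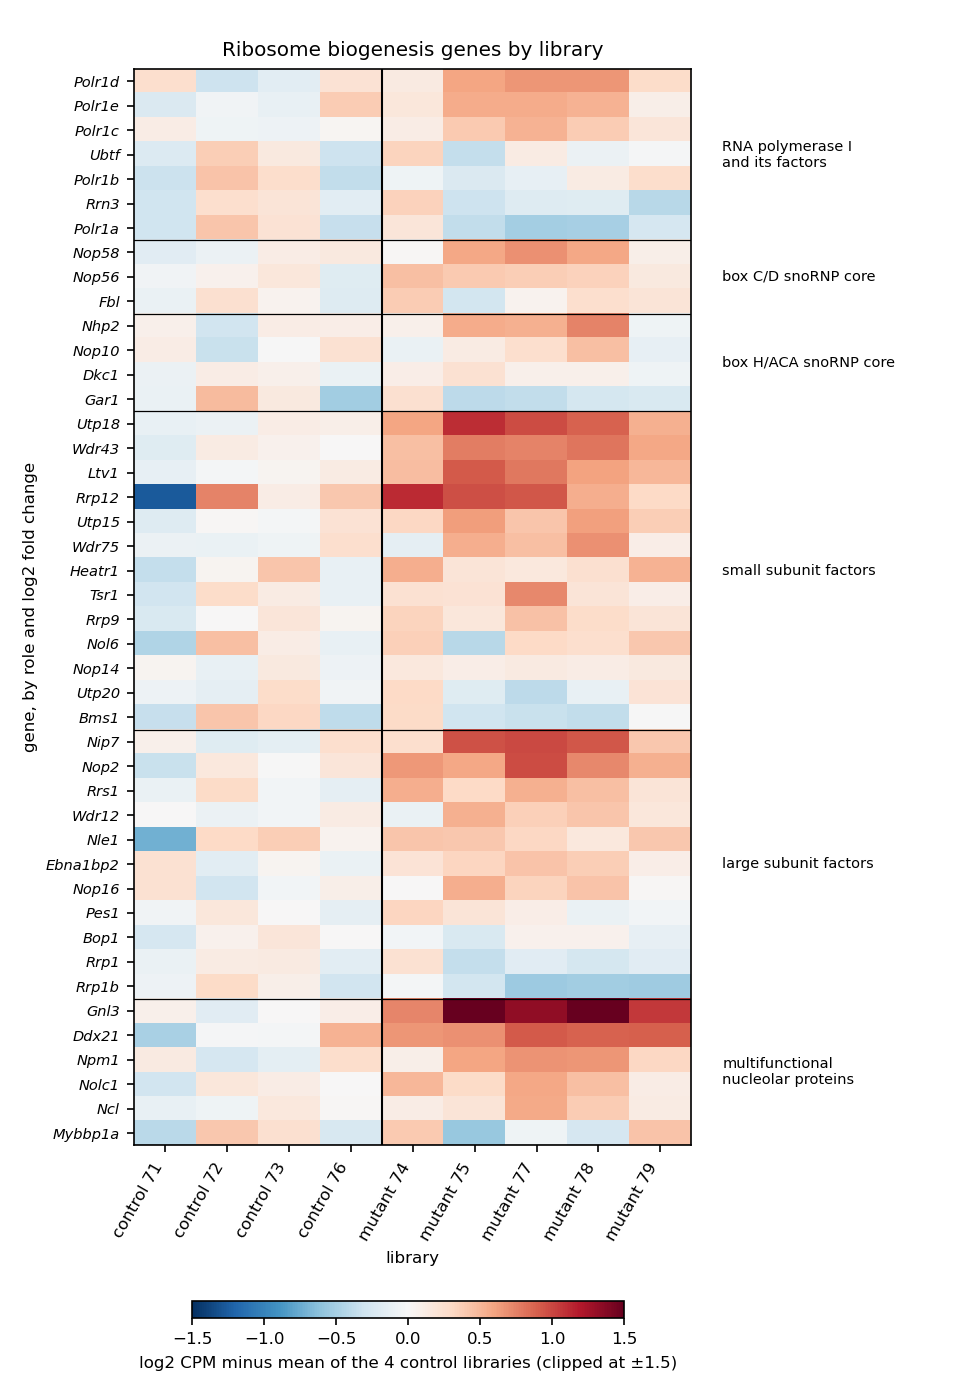
Each row is 1 of the 44 genes, grouped by role and ordered by fold change, and each column 1 library; the colour is the log2 CPM minus the mean of the 4 control libraries, clipped at 1.5 in either direction. *Gnl3*, *Utp18*, *Nip7* and *Ltv1* are darkest in mutant libraries 75, 77 and 78, and *Polr1a* and *Rrp1b* run the other way.

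In the heat map of the 44 genes by library, mutant libraries 75, 77 and 78 differed from mutant libraries 74 and 79. All 3 of the former lay above both of the latter in 18 of the 44 genes (40.9%), 6 of the 9 that rose among them, against 21.2% of all genes tested. They lay below both in 9 genes (20.45%), a share near the 21.6% over all genes tested. The 9 genes that were lower in those 3 libraries were *Polr1a*, *Gar1*, *Heatr1*, *Utp20*, *Nol6*, *Nop14*, *Bms1*, *Rrp1* and *Mybbp1a*. This division of the 5 mutant libraries was drawn after the values were seen and is not one of the study's groups.

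None of the 7 listed genes of RNA polymerase I and its factors passed the threshold. *Polr1a* and *Polr1b* encode the catalytic subunits, *Polr1c* and *Polr1d* a pair of subunits shared with RNA polymerase III, and *Polr1e* a subunit specific to RNA polymerase I; *Ubtf* binds the ribosomal DNA. In the edgeR test 3 of them were higher and none lower at an unadjusted p under 0.05, against 16.3% and 15.2% of all genes tested. DESeq2 called 2 higher (*Polr1c*, *Polr1d*), against 10.4% of the genes given an adjusted p. Limma-voom called 3 higher (*Polr1c*, *Polr1d*, *Polr1e*) and *Polr1a* lower, against 16.1% and 16.4% of all genes tested. The median log2 fold change of the 7 genes was -0.01, the same as over all genes tested.

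*Polr1a* was measured at 30.4, 49.96, 43.6 and 29.5 CPM (counts per 1000000 counts of the normalised library size) in control libraries 71, 72, 73 and 76, and at 42.5, 28.9, 26.3, 26.4 and 31.5 CPM in mutant libraries 74, 75, 77, 78 and 79, the order used for every gene that follows. The groups overlapped, with mutant library 74 close to control library 73, and the log2 fold change was -0.30 ± 0.19 (SE; adjusted p = 0.312; 2-sided exact permutation test, p = 0.214). *Polr1b* was at 28.6, 47.9, 42.8 and 27.7 CPM in control and at 34.2, 30.7, 32.8, 38.8 and 42.8 CPM in mutant libraries. The mutant values of *Polr1b* lay within the wider range of the control values. Its log2 fold change was -0.04 ± 0.18 (adjusted p = 0.914), with an approximate 95% interval from -0.39 to 0.32. Both catalytic subunits were lowest among control libraries in 71 and 76.

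*Polr1d* had the smallest p of the group. Its control libraries were at 106, 71.8, 80.0 and 104 CPM and its mutant libraries at 97.5, 135, 141, 142 and 108 CPM. Only mutant library 74 fell within the control range; the log2 fold change was 0.46 ± 0.16 and the adjusted p-value 0.0612. *Polr1c* did not overlap between genotypes, since its highest control library was at 115.2 CPM and its lowest mutant library at 115.3 CPM, and its log2 fold change of 0.32 ± 0.11 gave an adjusted p of 0.0709. For *Polr1e* the log2 fold change was 0.37 (adjusted p = 0.135), for *Rrn3* -0.15 (0.610) and for *Ubtf* -0.01 (0.973). Thus the fitted changes of *Polr1c*, *Polr1d* and *Polr1e* were positive, that of *Polr1a* was negative and that of *Polr1b* was near 0. Other subunits, from the wider lists below and named after their values were seen, went both ways. *Cd3eap* was at -0.43 (adjusted p = 0.123), *Twistnb* at 0.52 (0.0261) and *Znrd1* at 0.25 (0.343). Whether smaller and catalytic subunits differ was not tested.

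The snoRNP core proteins likewise held no gene past the threshold. In the box C/D core fibrillarin (*Fbl*) is the methyltransferase, and *Nop56* and *Nop58* encode its scaffold. None of these 3 genes passed in edgeR, and 2 were higher at an unadjusted p under 0.05, against 16.3% of all genes tested. DESeq2 called 1 higher (*Nop56*), against 10.4% of the genes given an adjusted p. Limma-voom called 2 higher (*Nop56*, *Nop58*), against 16.1% of all genes tested. *Nop56* was at 311, 336, 362 and 284 CPM in control and at 442, 422, 417, 410 and 356 CPM in mutant libraries. Its control library 73 lay above mutant library 79, and the log2 fold change was 0.34 ± 0.11 (adjusted p = 0.0556, approximate 95% interval 0.12 to 0.56). *Nop58* and *Fbl* had log2 fold changes of 0.41 (adjusted p = 0.0840) and 0.13 (0.575).

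In the box H/ACA core dyskerin (*Dkc1*) is the pseudouridine synthase, and *Nhp2*, *Nop10* and *Gar1* encode its partners. None of these 4 genes passed in edgeR or DESeq2. At an unadjusted p under 0.05, 1 gene was higher, against 16.3% of all genes tested. Limma-voom called that gene, *Nhp2*, higher, against 16.1% of all genes tested. It was at 105, 81.8, 108 and 107 CPM in control libraries and at 105, 146.5, 145, 167 and 95.05 CPM in mutant libraries. Mutant libraries 75, 77 and 78 were above all controls and mutant libraries 74 and 79 were not; the log2 fold change was 0.39 ± 0.17 (adjusted p = 0.125). *Dkc1* and *Nop10* were nearly level, with log2 fold changes of 0.08 (0.622) and 0.12 (0.608), and *Gar1* was at -0.23 (0.464).

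**Figure D2:**
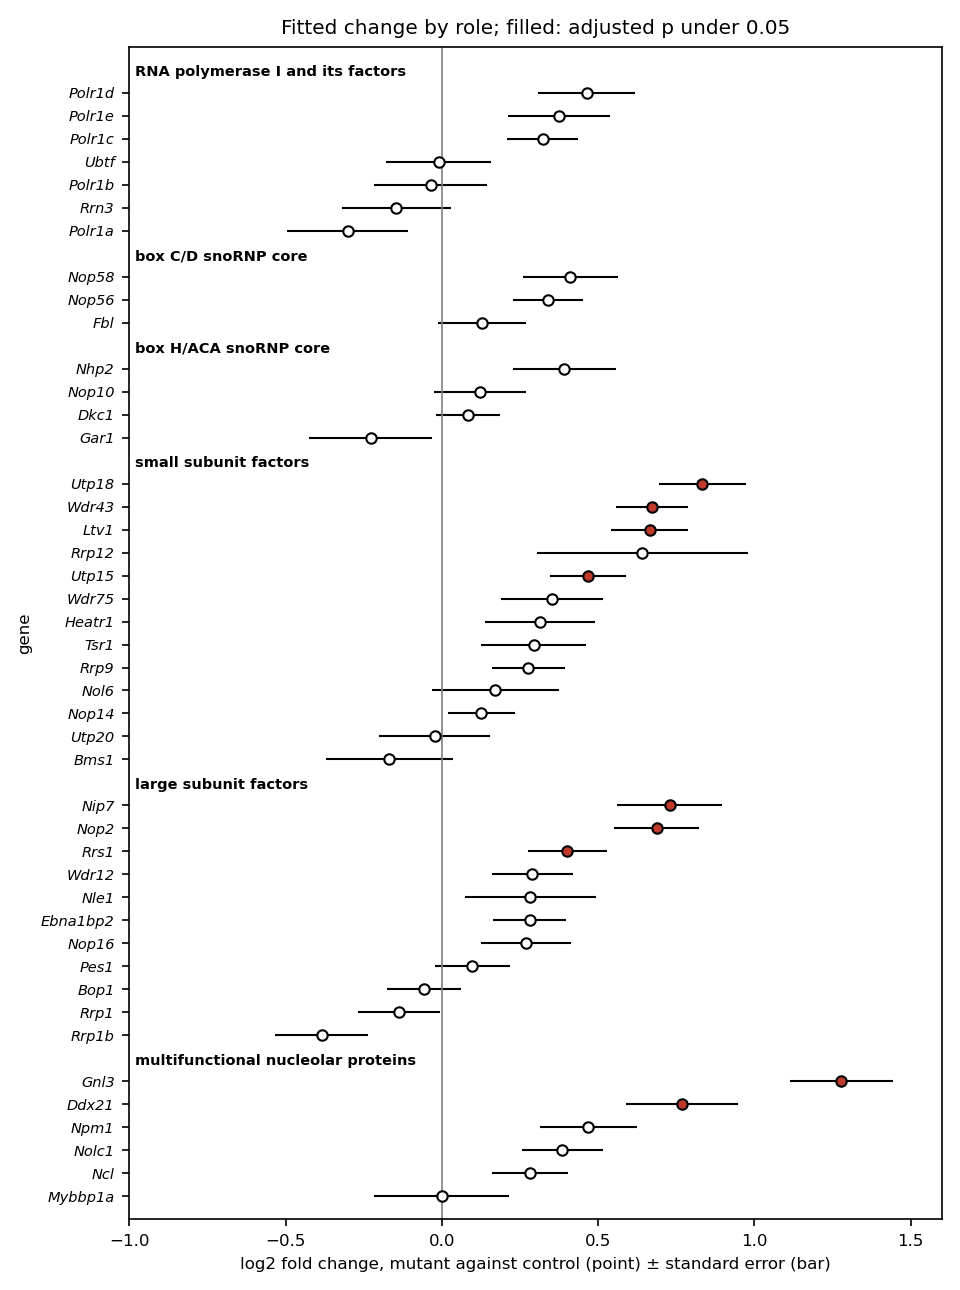
Points give the log2 fold change of each gene, mutant against control, with bars of 1 standard error, sorted by role; filled points passed the threshold of an adjusted p under 0.05. The 9 filled points lie between 0.40 and 1.28 in the small subunit, large subunit and multifunctional groups, and the points of RNA polymerase I lie on both sides of 0.

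Among small subunit factors, 4 of 13 genes (30.8%) passed the threshold, all higher, against 7.82% of all genes tested. The median log2 fold change was 0.31. Changes were positive in 11 (84.6%), against 49.2% of all genes tested. Of the 4 that rose, *Utp18*, *Wdr43* and *Utp15*, encode components of the early complex that assembles on the small subunit part of the precursor, and *Ltv1* encodes a late assembly factor that leaves the particle shortly before it is mature. In the plot of fold change by role, these 4 genes lie to the right of most of their group.

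*Utp18* (ENSMUSG00000054079, chr11:93859243-93885766, minus strand) was at 41.2, 41.9, 48.4 and 47.6 CPM in control libraries and at 67.4, 96.5, 88.1, 82.6 and 64.4 CPM in mutant libraries. Every mutant library exceeded every control, with the lowest mutant values in libraries 74 and 79. The log2 fold change was 0.83 ± 0.14 (adjusted p = 0.00301; 2-sided exact permutation test, p = 0.00794, the smallest this design can give). *Utp18*, *Wdr43* and *Ltv1* are 3 of the 4 genes that rose whose promoter window held the E-box, the other being *Nop2*.

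*Wdr43* (ENSMUSG00000041057, chr17:71616215-71659031, plus strand) was at 102, 126.1, 121 and 116 CPM in control and at 159, 198, 195, 202 and 174 CPM in mutant libraries. Again no mutant value came within the control range, and the log2 fold change was 0.67 ± 0.11 (adjusted p = 0.00324). *Ltv1* (ENSMUSG00000019814, chr10:13178640-13193137, minus strand) was at 57.3, 61.1, 64.0 and 67.9 CPM in control libraries, against 86.3, 118.5, 108, 94.8 and 88.3 CPM in mutant libraries. The control libraries of *Ltv1* lay close together and below all mutant libraries; the log2 fold change was 0.66 ± 0.12 (adjusted p = 0.00486).

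*Utp15* (ENSMUSG00000041747, chr13:98246845-98262992, minus strand) showed the smallest of these 4 changes. Control libraries were at 55.6, 64.4, 62.3 and 74.3 CPM and mutant libraries at 79.4, 98.8, 85.1, 98.2 and 82.3 CPM. The groups did not overlap, control library 76 being the nearest to the mutants, and the log2 fold change was 0.47 ± 0.12 (adjusted p = 0.0223). The call was lost without control library 71, 72 or 73 or without mutant library 78, with adjusted p-values up to 0.0741.

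The other 9 small subunit genes did not pass. *Wdr75* and *Heatr1*, which encode further components of the early complex, had log2 fold changes of 0.35 (adjusted p = 0.160) and 0.31 (0.243). *Rrp12* had a larger value of 0.64 with a standard error of 0.34, at 1.62 to 6.58 CPM in control and 4.86 to 8.57 CPM in mutant libraries (adjusted p = 0.214). *Tsr1*, which encodes a GTPase-like factor, was at 0.29; 1240 of its exonic bases overlap exons of *Srr*, and without strand information reads from the 2 genes cannot be told apart there. *Rrp9* (0.28), *Nol6* (0.17), *Nop14* (0.13), *Utp20* (-0.02) and the GTPase gene *Bms1* (-0.17) completed the group, with the smallest adjusted p, 0.127, in *Rrp9*.

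**Figure D3:**
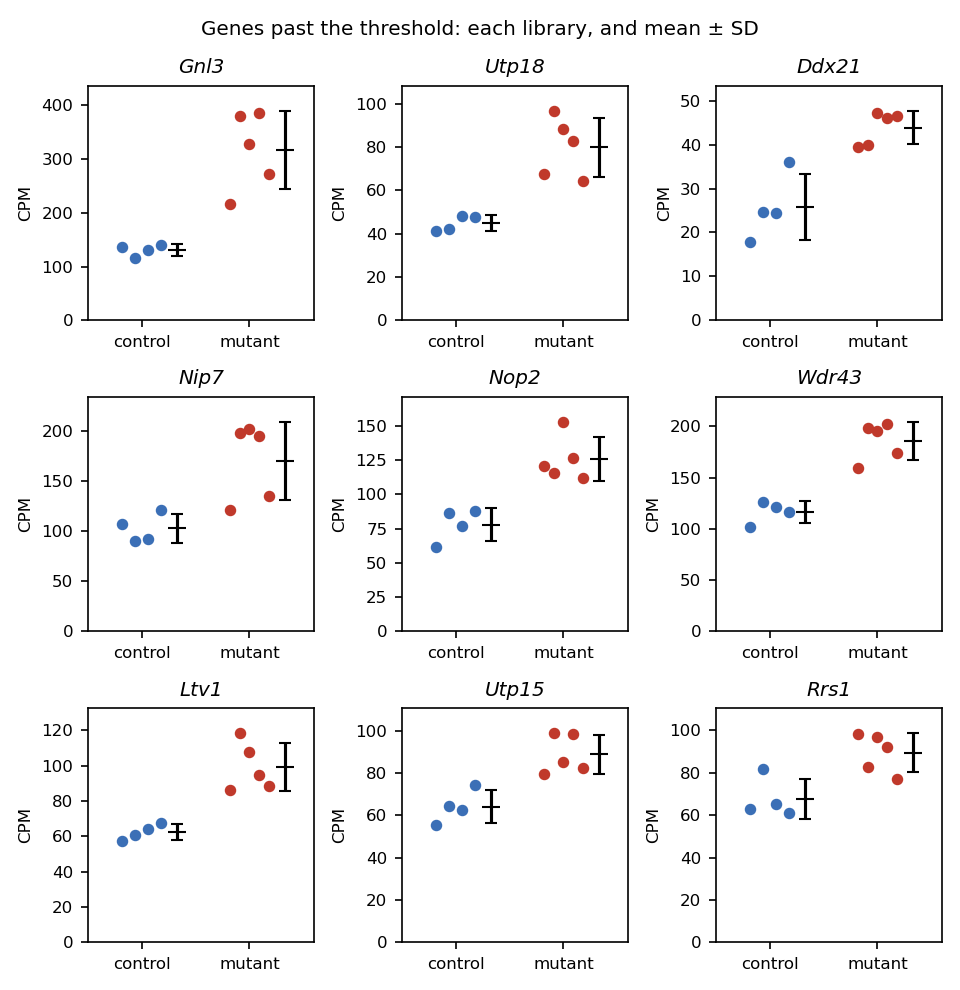
Points give the CPM of each library for the 9 genes past the threshold, in control (4 libraries) and mutant (5 libraries) samples, with the mean and SD beside them on axes that start at 0. Control and mutant points are separate in 8 genes and overlap in *Rrs1*.

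Large subunit factors had 3 of 11 genes (27.3%) past the threshold, all higher, against 7.82% of all genes tested. The median log2 fold change was 0.28. Changes were positive in 8 (72.7%), against 49.2% of all genes tested. The 3 genes past the threshold were *Nip7*, *Nop2* and *Rrs1*. The product of *Nip7* acts in processing of the large subunit RNA. *Nop2* encodes an RNA cytosine methyltransferase, and *Rrs1* an assembly factor of early large subunit particles.

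*Nip7* (ENSMUSG00000031917, chr8:107056877-107060926, plus strand) was at 108, 90.1, 92.5 and 121 CPM in control libraries and at 121.5, 198, 202, 195 and 135.5 CPM in mutant libraries. Mutant library 74 lay just above control library 76, and the 3 mutant libraries 75, 77 and 78 stood well above all others. The log2 fold change was 0.73 ± 0.17 (adjusted p = 0.0137), and without control library 73 the adjusted p was 0.0524.

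*Nop2* (ENSMUSG00000038279, chr6:125131883-125144753, plus strand) was at 61.3, 86.2, 76.7 and 87.8 CPM in control and at 121, 116, 153, 127 and 112 CPM in mutant libraries. The mutant libraries were more even here than for *Nip7*, and the lowest of them was well above the highest control; the log2 fold change was 0.69 ± 0.14 (adjusted p = 0.00654). *Rrs1* (ENSMUSG00000061024, chr1:9545408-9547455, plus strand) was at 62.9, 81.7, 65.2 and 61.0 CPM in control and at 98.4, 82.6, 97.1, 92.0 and 77.2 CPM in mutant libraries. Control library 72 lay above mutant library 79, and the log2 fold change was 0.40 ± 0.13 (adjusted p = 0.0467).

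The call of *Rrs1* was the least stable of the 9, as it was kept in 8 of 18 alternatives, with adjusted p-values between 0.0122 and 0.128. It was lost without control library 71, 73 or 76 and without mutant library 74, 75, 77 or 78, as well as with upper-quartile factors, without a filter and with a Y-linked covariate, and its log2 fold change stayed between 0.36 and 0.50. The study itself reported increased ribosomal gene expression from these same libraries, so none of the 9 genes is independent evidence of direction.

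*Rrp1b*, which encodes a nucleolar protein related to the product of *Rrp1*, was the only gene against the direction of the group at an unadjusted p under 0.05. It was at 63.0, 80.7, 70.4 and 54.2 CPM in control and at 64.9, 54.6, 45.3, 46.1 and 46.0 CPM in mutant libraries. Mutant libraries 77, 78 and 79 lay below all controls and libraries 74 and 75 did not, and the log2 fold change was -0.38 ± 0.15 (unadjusted p = 0.0224 and adjusted p = 0.0963 in edgeR). Without mutant library 74 the adjusted p of *Rrp1b* passed the threshold.

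*Bop1*, *Pes1* and *Wdr12* encode the 3 subunits of a complex needed for processing of the large subunit RNA, and none passed. Their log2 fold changes were -0.06 (adjusted p = 0.774), 0.10 (0.615) and 0.29 (0.147). The assembly factors *Nle1*, *Ebna1bp2* and *Nop16* were at 0.28, 0.28 and 0.27, and *Rrp1* at -0.14.

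Multifunctional nucleolar proteins had 2 of 6 genes (33.3%) past the threshold, *Gnl3* and *Ddx21*, both higher, against 7.82% of all genes tested. The group had the highest median of the roles, a log2 fold change of 0.43. *Gnl3* (ENSMUSG00000042354, chr14:31012434-31019089, minus strand) encodes nucleostemin, a nucleolar GTPase known for its high level in stem and progenitor cells. It was at 137, 115.5, 130 and 140 CPM in control libraries and at 217, 381, 328, 386 and 273 CPM in mutant libraries. The control libraries spanned a narrow range that the lowest mutant library, 74, exceeded by more than that range. The log2 fold change of 1.28 ± 0.16 was the largest of the 44 genes (adjusted p = 7.15e-04; 2-sided exact permutation test, p = 0.0159).

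*Ddx21* (ENSMUSG00000020075, chr10:62580248-62602298, minus strand) encodes an RNA helicase that acts in ribosomal RNA transcription and processing. Its control libraries were at 17.8, 24.6, 24.5 and 36.0 CPM and its mutant libraries at 39.5, 40.0, 47.1, 46.0 and 46.6 CPM. Here the controls varied more than the mutants, with library 76 close to the lowest mutant, and the groups did not overlap. The log2 fold change was 0.77 ± 0.18 (adjusted p = 0.0138).

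The other 4 nucleolar genes did not pass. Nucleophosmin (*Npm1*), an abundant histone and ribosome chaperone, was at 1184 to 1696 CPM in control and 1500 to 2263 CPM in mutant libraries, with a log2 fold change of 0.47 (adjusted p = 0.0565). *Nolc1*, whose product binds both kinds of snoRNP, and nucleolin (*Ncl*) were at 0.39 (0.0631) and 0.28 (0.134). *Mybbp1a*, a repressor of ribosomal RNA synthesis among other roles, was level in the fit, with a log2 fold change of 0.00, and ranged from 95.6 to 167 CPM in control and from 85.0 to 170 CPM in mutant libraries.

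Beyond these 44 genes, 128 other genes of the pathway were listed from general knowledge, of which 127 were in the table and all of those were tested. 25 of the 127 (19.7%) were higher and 1 was lower, against 7.82% and 7.02% of all genes tested. The change was positive in 103 (81.1%), against 49.2% of all genes, and the median log2 fold change was 0.21. By role, 2 of 14 other polymerase I subunits and factors, 1 of 10 other snoRNP and snoRNP assembly genes, 12 of 48 other small subunit factors and 10 of 55 other large subunit factors were higher, and the snoRNP share lies near the 7.82% over all genes. The medians of these lists were 0.07, 0.10, 0.24 and 0.26.

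The largest changes among them were in *Mak16*, a large subunit factor, which was at 19.0 ± 3.25 CPM in control libraries (SD, n = 4) and 36.3 ± 8.62 CPM in mutant libraries (SD, n = 5), which gave a log2 fold change of 0.94 ± 0.19 (adjusted p = 0.00769). *Taf1d*, a component of the selectivity factor of RNA polymerase I, rose from 61.1 ± 6.49 to 113 ± 34.1 CPM (log2 fold change 0.89 ± 0.20, adjusted p = 0.0125). *Urb2*, another large subunit factor, rose from 6.22 ± 1.43 to 11.2 ± 2.12 CPM (0.84 ± 0.22, adjusted p = 0.0218). *Mphosph10*, a component of the early small subunit complex, rose from 29.9 ± 4.31 to 53.4 ± 8.56 CPM (0.84 ± 0.15, adjusted p = 0.00441). *Twistnb*, a subunit of RNA polymerase I named here after its values were seen, was the other gene of its list past the threshold. It was at 52.0, 55.8, 52.3 and 50.3 CPM in control and at 56.4, 89.4, 83.3, 80.2 and 66.8 CPM in mutant libraries, without overlap, and its log2 fold change was 0.52 ± 0.14 (adjusted p = 0.0261). In *Taf1d* the mutant SD was the widest of these, with 69.4 and 86.0 CPM in libraries 74 and 79 against 123 to 146 CPM in the other 3. The gene that fell, *Pih1d1*, encodes a component of the chaperone complex for snoRNP assembly. It was at 76.9 ± 12.1 CPM in control and 55.3 ± 2.95 CPM in mutant libraries, which gave a log2 fold change of -0.48 ± 0.12 (adjusted p = 0.0201).

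**Figure D4:**
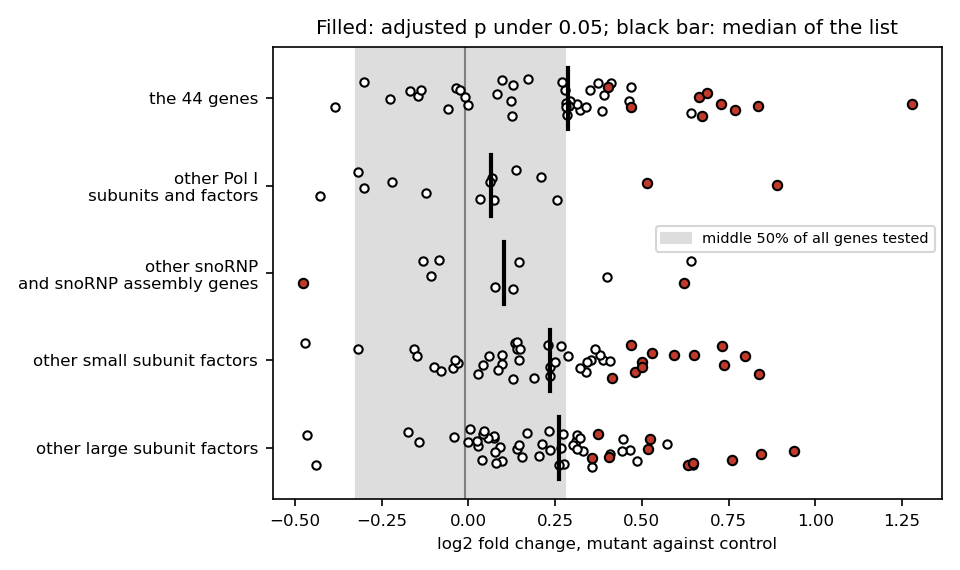
Each point is the log2 fold change of 1 gene, mutant against control, for the 44 genes and the 4 lists of other pathway genes; filled points passed the threshold, black bars are the medians of the lists and the grey band holds the middle 50% of all genes tested. The medians of the 44 genes (0.29) and of the large subunit list (0.26) lie near the upper edge of the band, and the polymerase I list (0.07) lies near its middle.

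In the plot of all pathway lists, the 44 genes are drawn as 1 list, and among the other lists that of RNA polymerase I had the lowest median. By role within the 44 genes, which the plot does not show, RNA polymerase I and its factors also had the lowest median (-0.01). Factors of the small and the large subunit had higher medians in both sets. The other lists do not share genes with the 44 but come from the same 9 libraries, and differences between roles were not tested.

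Of the 44 genes, 7 contain snoRNA genes of GENCODE release M21 within their bounds, 21 in all: *Nop56* (5), *Nop58* (4), *Wdr43*, *Ncl* and *Gnl3* (3 each), *Tsr1* (2) and *Dkc1* (1). Introns of such host genes carry the guide RNAs of the same snoRNPs, which poly(A) selection does not retain. The hosts had a median log2 fold change of 0.34, against 0.28 in the other 37 genes. Of the 7 hosts 2 rose, against 20.5% of the 44 genes and 7.82% of all genes tested. Whether hosts differ from the other genes was not tested. Exons of 14 of the 44 genes overlap exons of another gene; among the 9 that rose this held for *Gnl3*, by 15 bases with *Pbrm1*.

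Libraries also differed in how expression depended on gene length. Over 10663 genes with a mean above 5 CPM, the slope of centred log2 CPM per doubling of gene length was -0.13, 0.10, 0.02 and -0.05 in control libraries and 0.11, -0.08, -0.05, -0.04 and 0.12 in mutant libraries. The mean slope did not differ between genotypes beyond the spread of the libraries (2-sided exact permutation test, p = 0.627), but mutant libraries 74 and 79 stood apart from the other 3 in the same way as for *Gnl3* and *Nip7*. Of the 22 shorter genes, up to the median of 3113.5 bases, 5 rose (22.7%) and 19 had a positive change (86.4%). Of the 22 longer genes, 4 rose (18.2%) and 14 had a positive change (63.6%). Among all genes tested, 7.82% were higher and 49.2% had a positive change. The median log2 fold changes of the shorter and the longer genes were 0.28 and 0.29. With each library's slope as a covariate, a setting chosen after the data were seen, 21 of the 44 genes were higher and 2 lower, and 9 of the 9 that rose were among them; over all genes tested 15.3% were then higher and 14.2% lower.

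**Figure D5:**
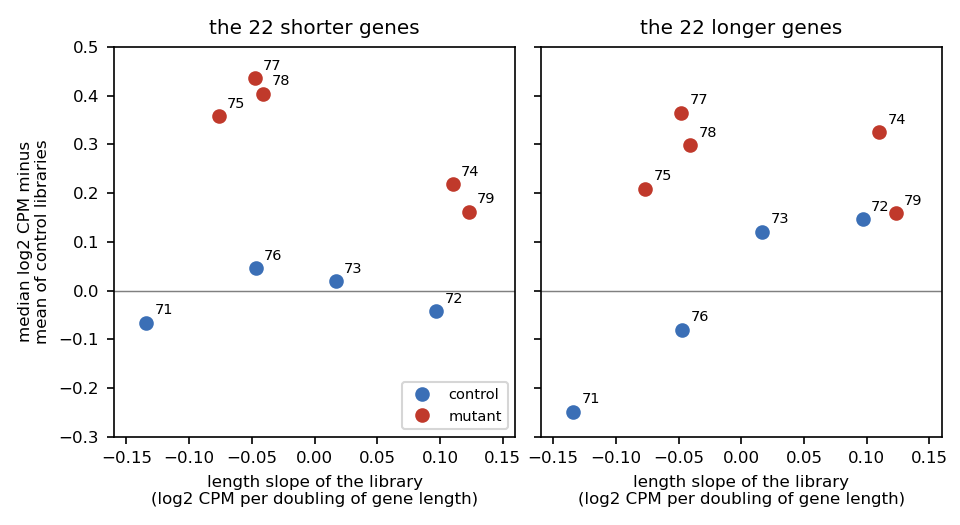
Each point is 1 library; the x axis is the slope of log2 CPM per doubling of gene length over all genes above the expression limit, and the y axis the median log2 CPM, relative to the control mean, of the 22 shorter genes (left) or the 22 longer genes (right). For the shorter genes the 5 mutant libraries lie between 0.16 and 0.44 and the 4 control libraries between -0.07 and 0.05; for the longer genes control library 72 (0.15) comes close to mutant library 79 (0.16).

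In the plot of expression against length slope, mutant libraries lay above control libraries of like slope in both sets. Library 71, the control with the lowest slope, had the lowest value for the longer genes, at -0.25.

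Depth, the targeted gene and cell type markers were checked for the libraries as a whole. Library totals ranged from 21040536 to 23986458 counts. *Uqcrq* fell from 94.1 ± 13.3 CPM (SD, n = 4) to 21.3 ± 4.45 CPM (SD, n = 5), with a log2 fold change of -2.14, and every mutant library lay below every control. Progenitor markers were present in all libraries, with a summed level of 12 genes between 2430 and 2926 CPM in control and between 2439 and 2869 CPM in mutant libraries, and none was called. Markers of committed nephron epithelium were lower in mutant libraries, 4 of 9 past the threshold, with summed levels of 616 to 1067 CPM in control and 415 to 554 CPM in mutant libraries. Stromal markers were higher, 5 of the 8 tested of 9, with sums of 79.2 to 163 CPM in control and 210 to 572 CPM in mutant libraries, and macrophage markers were higher, 2 of 7, with 2.39 to 10.8 and 10.2 to 122 CPM. The highest stromal sum was in mutant library 75 and the highest macrophage sum in mutant library 77. Among other cell types, 1 of 4 endothelial markers tested was higher and none was called of the 4 ureteric bud, 3 podocyte, 2 proximal tubule and 1 erythroid markers that could be tested, of 8, 5, 5 and 5 listed; *Slc34a1*, *Hnf4a*, *Wnt9b* and *Hbb-bt* had a median count of 0. The stromal and macrophage levels were higher in the same genotype as the 9 genes and those of committed epithelium lower, and their part in the results for the ribosome biogenesis genes was not tested. In RNA from sorted populations, more RNA per cell and more cells of a type that express a gene cannot be told apart.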

How the data were processed

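RNA of sorted cells was amplified from low input with poly(A) selection and sequenced without strand information, per the labels, 1 library for each sample. The submitters' processing notes name STAR, DESeq2 and build mm10; the counting tool and versions are not given in the sources used here. The authors deposited 1 table with read counts per gene and FPKM values, which they computed from the counts. The table also has deposited signal columns (normalised counts averaged by genotype), a log2 fold change, p-values and adjusted p-values of the authors' comparison, none of which was used. Gene identifiers in the lower part of the table run on as a number series, so genes were matched by symbol; 43 of the 44 identifiers matched GENCODE release M21. *Riok2*, in the wider list, is not analysed here.

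Counts were fitted in R 4.3.3 with edgeR 4.0.16 on genotype alone (filterByExpr, TMM, robust quasi-likelihood test), and p-values were adjusted by Benjamini-Hochberg over 14990 genes, with a threshold of 0.05. Standard errors were obtained from the fitted change and the F statistic. CPM use TMM-normalised library sizes. Single genes were also compared by 2-sided exact permutation. Members, lists and tests were chosen with earlier results of these data known, so no test over a list was made. Values in every library are given for genes past the threshold, the smallest p of each role, genes against the group's direction at an unadjusted p under 0.05, and *Polr1a* and *Polr1b*; of the wider lists, the 4 largest rises and falls past the threshold are named.

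Alternatives were DESeq2 1.42.0, RLE and upper-quartile factors, no filter, 10 or more counts in each library, limma-voom (limma 3.58.1) with quality weights, 1 surrogate variable (sva 3.50.0), a Y-linked covariate, each library left out in turn, unadjusted p-values and a removed length trend; the length slope covariate was added after the data were seen. The edgeR script was tested on simulated data. Totals of 21040536 to 23986458 counts make counting error small for all members but *Rrp12*, so precision rests on how far libraries differ. Figures were drawn with Python 3.11.15 and matplotlib 3.10.9.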

Additional observations from a re-analysis of the deposited data

Results flagged for a closer look

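In 7 of 90 groups of libraries (44 genes and their share of counts, by genotype), the highest or lowest library lay farther from its nearest neighbour than Dixon's 95% limit allows, where chance gives about 4.5, or 1 in 20. Of these, 3 were high values in mutant library 74: *Rrn3* at 52.1 CPM against 30.7 to 36.2 CPM in the other mutant libraries, *Gar1* at 37.5 CPM against 24.2 to 27.2 CPM, and *Rrp1* at 513 CPM against 340 to 389 CPM. *Tsr1* was high in mutant library 77, at 37.6 CPM against 24.4 to 26.7 CPM, and *Nol6* low in mutant library 75, at 17.5 CPM against 27.7 to 30.9 CPM. Among control libraries, *Nhp2* was low in library 72, at 81.8 CPM against 105 to 108 CPM, and *Wdr75* high in library 76, at 73.8 CPM against 58.1 to 59.5 CPM. None of these 7 genes passed the threshold in edgeR, and *Nhp2* alone among them had an unadjusted p under 0.05.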

How the results depend on the processing

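No paired analysis was possible because control and mutant libraries share no replicate number. The median log2 fold change of the 44 genes was 0.29 and ranged from 0.24 to 0.33 over all alternatives, within the spread between libraries. The 9 genes called, all higher, became 14 with DESeq2 and 15 with a surrogate variable, again all higher. With limma-voom, and likewise with the length slope as covariate, they became 23, of which 21 were higher and 2 lower. At an unadjusted p under 0.05 they numbered 22, with 21 higher and 1 lower. With a library left out they numbered between 6 (without control 73, all higher) and 15 (without mutant 74, 14 higher and 1 lower). The cause of these differences was not tested. The 26 wider genes called became 54 and 60 under limma-voom and the length slope, and 14 to 41 with a library left out (14 without control 72, 15 without control 73 or mutant 78, 41 without mutant 74). All genes called numbered 2225, against 4868 and 4424 under limma-voom and the length slope, 4709 at an unadjusted p, and 1046 to 3136 with a library left out. Genes without overlap numbered 9, and 9 to 14 with a library left out (14 without control 73, all higher, with 8.45% of all genes higher at that setting). Of 162 alternatives for the 9 genes, 147 kept the call and 15 lost it. Of 630 for the other 35 genes, 50 gained it and 33 changed sign, in 7 genes with log2 fold changes between -0.17 and 0.12. The values were, with DESeq2 and RLE, *Ubtf* 0.0034 and 0.0023 and *Mybbp1a* 0.013 and 0.012, and without filter *Mybbp1a* 0.00046. With a surrogate variable *Polr1b* was 0.14, *Ubtf* 0.15, *Nop10* -0.0066, *Utp20* 0.066, *Bms1* 0.061 and *Mybbp1a* 0.23, and with the Y-linked covariate *Polr1b* 0.15, *Ubtf* 0.093, *Utp20* 0.036, *Bms1* 0.018 and *Mybbp1a* 0.19. With a library left out, *Polr1b* ranged from -0.14 to 0.12, *Ubtf* from -0.10 to 0.13, *Utp20* from -0.11 to 0.075, *Bop1* from -0.14 to 0.0055 and *Mybbp1a* from -0.12 to 0.14. Low counts limit *Rrp12*.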
